A study of Mus musculus with 4 samples.

Results

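The mitochondrial respiratory chain was described at the transcript level in cultured cells from the mouse shoulder joint capsule. Its genes were taken as every gene of the deposited table whose symbol begins with Nduf, Uqcr, Cox4 to Cox8, Sdh or Atp5 and that reached at least 1 TPM (a transcript level corrected for length) in any of the 4 libraries. The rule found 96 of the 16416 genes in the table, out of 97 with such a symbol. They comprised 46 genes of complex I, 8 of complex II, 8 of complex III, 17 of complex IV and 17 of complex V, of which 84 encode structural subunits or a supercomplex factor and 12 assembly factors. Ndufa4 and Ndufa4l2 were counted with complex IV, where the Ndufa4 protein is known to sit.

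Each group was 1 RNA-seq library. The first came from wild-type cells of C57BL6/J mice and the second from miR-26a -/- cells, called the knockout here. The other 2 were knockout cells transfected for 24 h with 10 nM of Silencer Negative Control siRNA or double-stranded miR-26a mimic. Both transfected groups therefore carry the knockout genotype, and the level of miR-26a was not measured here. All cells were outgrowths of capsule tissue, obtained when the shoulder had been immobilized for 1 week, and were used at passage 2. How many mice a culture came from is not stated. The purpose stated for the series was to find mechanisms and target genes of miR-26a. With 1 library per group no replicate error exists, so no difference below was tested, and every 95% interval covers counting error only.

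The respiratory chain passes electrons from nutrients to oxygen and stores the energy as a proton gradient across the inner mitochondrial membrane. Complex I takes electrons from NADH and complex II from succinate, complex III hands them from ubiquinol to cytochrome c, complex IV reduces oxygen, and complex V is the ATP synthase that the gradient drives. Most subunits are encoded in the nucleus and imported, while a few of the catalytic ones of complexes I, III, IV and V are encoded in mitochondrial DNA. The mitochondrially encoded subunits and miR-26a itself were not analysed here.

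MicroRNAs bind 3' UTRs mainly through their seed, bases 2 to 8, which is in capitals in the mature sequence of miR-26a-5p (RefSeq, GRCm38.p6). The same 22 letters are encoded on chr9:119031811-119031832 and chr10:126995543-126995564, plus strand, and form the sense strand of the mimic. The 7-base match to the seed, TACTTGA, occurred in the longest annotated 3' UTR (GENCODE M21) of 3 of the 94 respiratory chain genes with a UTR, or 3.19%. Among all measured genes with a UTR it occurred in 1462 of 12670, or 11.5%, and their median UTR was longer, at 1228 bases against 235. The genes that hold a match are Ndufv2, a core subunit of complex I, Sdhaf3, an assembly factor of complex II, and Cox5a, a subunit of complex IV. The matches, in capitals with their surroundings, lie on chr17:66078787-66078793 (minus strand), chr6:7041220-7041226 and chr6:7042526-7042532 (plus strand), and chr9:57532313-57532319 (plus strand) of GRCm38.
miR-26a-5p: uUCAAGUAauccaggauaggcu
Ndufv2: caaacccaccaTACTTGAactttagctat
Sdhaf3, upstream match: tctccaataagTACTTGAgaaatgtaaac
Sdhaf3, downstream match: taagaccataaTACTTGAtactactagta
Cox5a: actgctattgcTACTTGAttgaaacagtt

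Only the Ndufv2 match was followed by A, which makes the longer 8-base form. The Cox5a match lies within the RefSeq span of its gene. The Ndufv2 match lies just past the RefSeq end at chr17:66078795, and both Sdhaf3 matches lie past the RefSeq end at chr6:7039661. These matches therefore rest on the longer GENCODE transcripts, and whether the cells use those ends was not tested. A match is a description of letters and not a shown binding site.

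The promoters were searched for letters bound by 3 factors known for nuclear genes of mitochondria. NRF1 was searched as GCATGCGC, the ETS family (to which the factor GABP belongs) as CCGGAAG and YY1 as AAGATGGCG, on both strands, from 250 bases before to 50 after the RefSeq start. Promoters were found for 79 of the 96 genes. The NRF1 letters were in 12 of these genes, or 15.2%, against 5.86% of 10280 measured genes with a promoter. The ETS letters were in 22, or 27.8%, against 19.7%, and the YY1 letters in 8, or 10.1%, against 3.45%. The YY1 letters include ATG, so a hit just after the start can overlap a start codon, and the NRF1 letters overlap their own reverse complement in GCGCATGCGC; each gene was counted once. For the most abundant gene of each complex that holds them, the NRF1 letters are shown in capitals on the gene's own strand (RefSeq, GRCm38.p6). The stretches lie on chr15:82354356-82354385 (minus strand), chr4:140961206-140961235 (plus), chr10:80406807-80406836 (minus), chr5:115349100-115349129 (minus) and chr9:44920963-44920992 (minus).
Ndufa6, complex I: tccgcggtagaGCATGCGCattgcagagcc
Sdhb, complex II: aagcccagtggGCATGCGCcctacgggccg
Uqcr11, complex III: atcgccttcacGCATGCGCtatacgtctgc
Cox6a1, complex IV: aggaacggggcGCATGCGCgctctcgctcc
Atp5l, complex V: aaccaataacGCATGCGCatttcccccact

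Facts of the whole table that touch these genes were as follows. The libraries held between 17598763 and 19392655 estimated counts. The labels name synovial fibroblasts, and 10 of 10 fibroblast markers were detected in all 4 libraries, with a summed level of 17028 TPM in wild type and 7174 to 7878 in the other libraries. All 20 macrophage markers were detected too, at 24080 TPM in wild type and 34162 to 35441 in the others. In every library their sum exceeded that of the fibroblast markers. Of the macrophage sum, Lyz2 alone gave 14913 TPM in wild type and 17286 to 18991 in the others. The lists also differ in length, so these sums do not rank the cell types. In knockout over wild type, 7 measured adipocyte markers had a median log2 ratio of -3.59, with 6 intervals below 0 and 1, that of Lpl, above. The 6 measured skeletal muscle markers had a median of -1.61, with 5 intervals below 0 and 0 above. All 12 mitotic (G2/M) markers were higher in knockout than in wild type, with sums of 156 and 383 TPM. With the negative control they summed to 382 TPM and with the mimic to 331, and in mimic over knockout 12 of 12 were below 0, with a median of -0.29 and 9 intervals below 0. Their part in the differences described here was not tested, and in bulk RNA more cells of a type and more RNA per cell cannot be told apart.

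Levels were compared first, per length. Summed over the 96 genes they came to 23425 TPM in wild type, 27953 in knockout, 27520 with the negative control and 26160 with the mimic. These sums are 2.34%, 2.80%, 2.75% and 2.62% of all TPM. The 3 knockout libraries were thus all above wild type, by 19.3%, 17.5% and 11.7%, and the mimic library lay closest to it.

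Complex V, the ATP synthase, had the highest summed level in every library, with 7565 TPM in wild type, 8893 in knockout, 8923 with the negative control and 8600 with the mimic. Complex IV followed with 7188, 8578, 8393 and 8086 TPM in the same order. Complex I, with the most genes, came next at 5971, 7186, 7045 and 6508 TPM. The order V, IV, I, III, II was the same in all 4 libraries. Complex III summed to 1964 TPM in wild type, 2464 in knockout, 2323 with the negative control and 2167 with the mimic. Complex II, which also serves the citric acid cycle, summed to 737, 832, 837 and 798 TPM. For every complex the wild-type library was lowest and the mimic library second lowest.

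**Figure D1:**
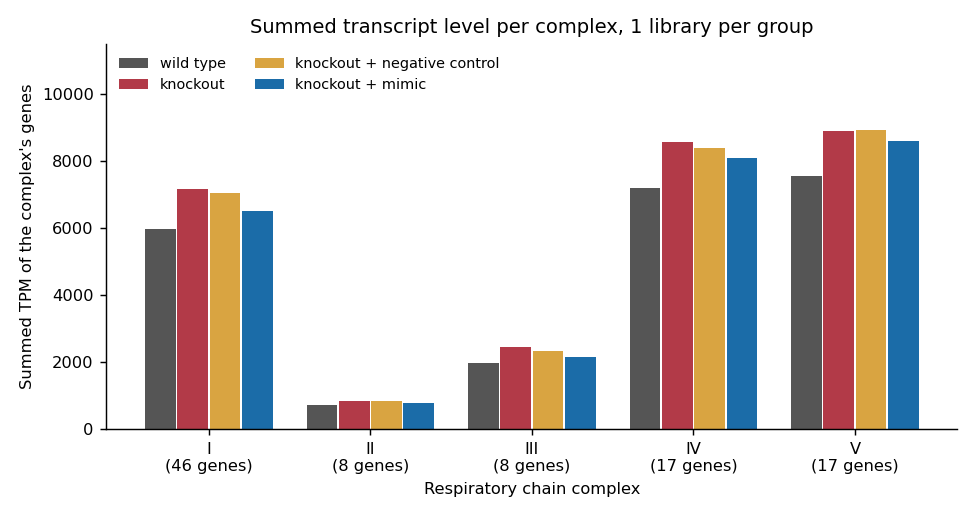
Summed TPM of the genes of each complex (horizontal axis, with the number of genes) in the 4 libraries, 1 bar per library and no error bars because each group is 1 library. In every complex the wild-type bar is the lowest, from 737 TPM in complex II to 7565 TPM in complex V.

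Within complex I the most abundant gene was Ndufa3, a small accessory subunit, in all 4 libraries. In complex II it was Sdhc, a membrane anchor subunit. Cox6b1, which lies on the intermembrane side of complex IV, led its complex and was the most abundant of all 96 genes, at 947 TPM in wild type, 1208 in knockout, 1203 with the negative control and 1171 with the mimic. Atp5l, the membrane subunit g of the ATP synthase, led complex V with 796, 916, 888 and 912 TPM. In complex III, Uqcrh, the hinge protein, led in wild type at 510 TPM, while Uqcr10, a small membrane subunit, led in the knockout (567), negative control (541) and mimic (514 TPM) libraries.

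Knockout was then compared with wild type gene by gene. The difference is a log2 ratio of scaled counts, positive when knockout was higher, and 93 of the 96 genes were measured (at least 1 CPM in either library). Respiratory chain genes were mostly higher in knockout. Of the 93 genes, 86 had a ratio above 0 and 7 below, and the median ratio was 0.38, or 1.30-fold, against 0.01 for all 12803 measured genes. The counting interval lay above 0 for 78 genes, or 83.9%, where 32.6% of all measured genes did so. It lay below 0 for 1 gene, against 30.3% of all. The shift was broad and small. At least 1.5-fold higher with an interval above 0 were 17 genes, against a background of 11.3%, and 1.5-fold lower was 1 gene, Cox6b2, against 13.2%. On the scale of deposited TPM, where the median of all genes itself moved to -0.11, 0 genes were 1.5-fold higher and the median was 0.22, which is 0.33 above that of all genes.

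Transcript length moved with this result. The effective length implied by the authors' counts and FPKM was 9.51 bases longer in knockout than in wild type over 3411 well counted genes. Respiratory chain transcripts are short, and other short transcripts had higher ratios than long ones. Among the 93 other genes of under 300 bases effective length, 26 of which have symbols starting with Rpl or Rps (ribosomal proteins), the median ratio was 0.43, beside 0.54 for 25 respiratory chain genes of that length. Between 300 and 600 bases the medians were 0.32 for other genes and 0.40 for 31 respiratory chain genes, and between 600 and 1000 bases 0.24 and 0.32 for 14 genes. Only from 1000 bases on was the gap wider, with medians of 0.09 and 0.28 for 17 genes up to 2000 bases and of -0.05 and 0.22 for the 6 longest. Beside genes of like length, then, the respiratory chain stood 0.07 to 0.28 higher, not 0.37 as beside all genes. With each count divided by its library's effective length, the median was 0.34 and 10 genes were 1.5-fold higher.

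**Figure D2:**
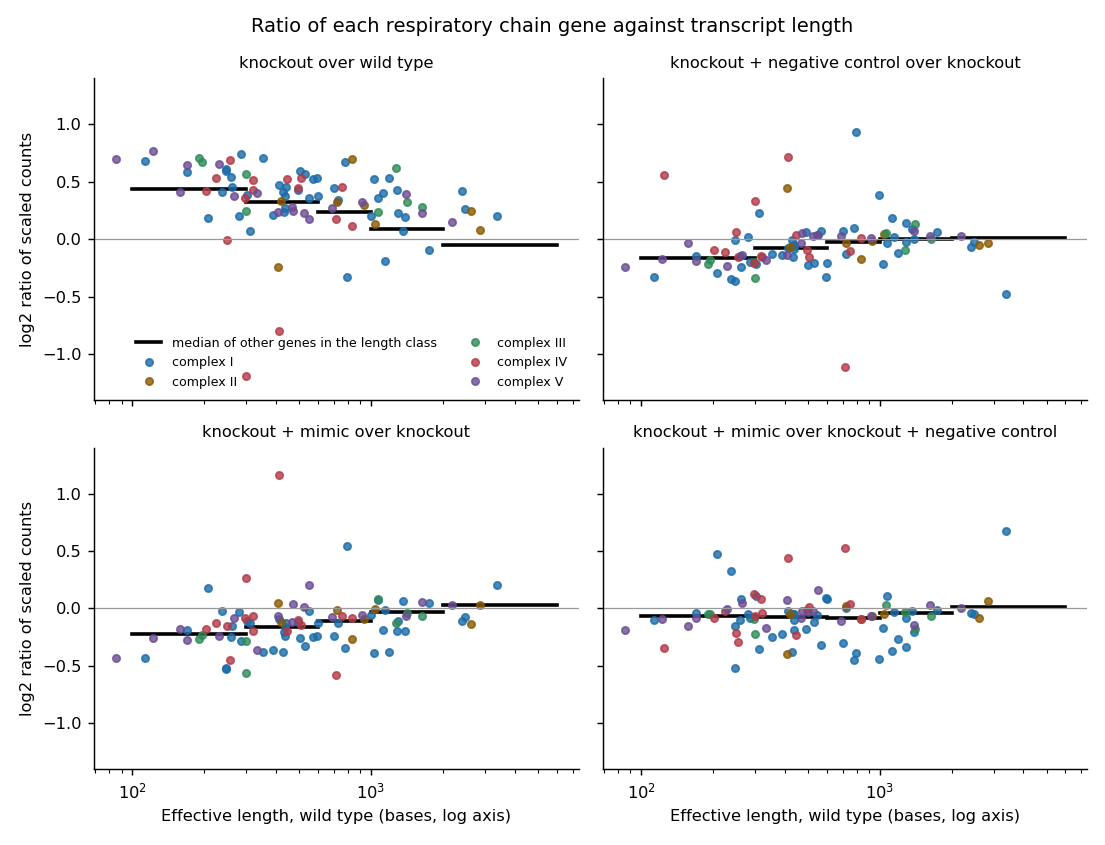
Log2 ratio of scaled counts (vertical) against effective transcript length in wild type (horizontal, log axis) for each measured respiratory chain gene, coloured by complex, in the 4 comparisons; black bars mark the median of all other genes in 5 length classes, the outer classes being open-ended. In knockout over wild type the black bars step down from 0.43 to -0.05 with length and 15 of the 25 shortest respiratory chain genes lie above their bar.

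Complex I genes had a median ratio of 0.41 in knockout over wild type, and 36 of 45 had an interval above 0. Ndufb7, an accessory subunit on the intermembrane side (chr8:83566758-83571623, GRCm38.p6), was at 168 TPM in wild type, 248 in knockout, 230 with the negative control and 215 with the mimic. Its log2 ratio of knockout over wild type was 0.74 (interval 0.56 to 0.92), the highest of the complex. All 3 knockout libraries lay above wild type. Ndufa2, an accessory subunit of the matrix arm, stood at 158, 230, 222 and 185 TPM in the same order, a ratio of 0.71 (0.55 to 0.87). Ndufa3 was at 491, 672, 597 and 537 TPM, with a ratio of 0.68 (0.52 to 0.85). Ndufa12, also an accessory subunit, was at 74.8, 108, 120 and 88.1 TPM, with a ratio of 0.67 (0.51 to 0.84). In these the mimic library lay between wild type and the other knockout libraries. The other complex I genes past 1.5-fold were the accessory subunits Ndufa1 (0.61), Ndufb3 (0.59) and Ndufc1 (0.59) and the assembly factor Ndufaf8 (0.60).

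The 7 nuclear core subunits of complex I, which carry the flavin and the iron-sulphur clusters, had a median ratio of 0.27. Its 30 measured accessory subunits had 0.43. The core and accessory subunits were not matched for transcript length, and its part in this contrast was not tested. Among the core subunits Ndufs7 had the highest ratio, 0.57 (0.39 to 0.75), and Ndufv1, which binds NADH, the lowest, 0.07 (-0.05 to 0.20). Ndufv1 was at 86.6 TPM in wild type, 83.0 in knockout, 90.6 with the negative control and 89.6 with the mimic. Its libraries were near one another and in no order by genotype. The 8 assembly factors of complex I ranged from -0.33 for Ndufaf6 to 0.60 for Ndufaf8, and 2 of them had an interval above 0. Ndufb4 and Ndufb4c carry fractional counts, as does the near-silent Ndufb4b, and since they are near-identical copies their separate values are uncertain.

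Complex II had the smallest median, 0.27, with intervals above 0 in 5 of 8 genes. Its 4 subunits differed among themselves. Sdhb, the iron-sulphur subunit (chr4:140961271-140979198), was at 114 TPM in wild type, 169 in knockout, 155 with the negative control and 146 with the mimic, a ratio of 0.70 (0.58 to 0.83). Sdhd, one of the membrane anchors, was at 132, 132, 140 and 136 TPM, a ratio of 0.13 (0.02 to 0.25). Sdha, the flavoprotein that oxidises succinate, had 0.24 (0.18 to 0.31), and Sdhc 0.30 (0.21 to 0.39). The interval of Sdhb thus lay above those of the other subunits. The assembly factors Sdhaf1 (0.32) and Sdhaf4 (0.33) were counted little, and of the 4 assembly factors only Sdhaf4 had an interval above 0.

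Complex III had the highest median, 0.45, and all 8 of its genes had an interval above 0. They fell into higher and lower ratios by subunit. Uqcr11, a small membrane subunit (chr10:80402997-80406821), was at 350 TPM in wild type, 500 in knockout, 465 with the negative control and 444 with the mimic, a ratio of 0.71 (0.56 to 0.86). Uqcr10 had a ratio of 0.67 (0.53 to 0.81), Uqcrq, another small subunit, 0.62 (0.50 to 0.75), and Uqcrb, a ubiquinone-binding protein, 0.57 (0.44 to 0.70). The remaining 4 ranged from 0.24 to 0.32. They were Uqcrc1 and Uqcrc2, named core proteins but counted here as accessory subunits, the hinge protein Uqcrh and the Rieske iron-sulphur protein Uqcrfs1. Uqcrfs1 was at 89.8, 96.1, 103 and 105 TPM. Cytochrome c1 (Cyc1), the other nuclear catalytic subunit, which the symbol rule misses, had 0.32 (0.20 to 0.44), and cytochrome c (Cycs) 0.57 (0.45 to 0.68).

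In complex IV the median was 0.43 and 12 of 15 measured genes had an interval above 0. Cox6c was at 646 TPM in wild type, 920 in knockout, 880 with the negative control and 713 with the mimic, a ratio of 0.69 (0.59 to 0.78), and was the only gene of the complex past 1.5-fold higher. Cox6b1 had 0.54 (0.45 to 0.62) and Cox7a2 0.53 (0.41 to 0.65). Cox4i1, the ubiquitous isoform of a regulatory subunit, was at 938, 1148, 1127 and 1117 TPM, a ratio of 0.44 (0.39 to 0.50). Ndufa4 was not higher, at 487, 428, 477 and 408 TPM and a ratio of -0.01 (-0.13 to 0.12). Cox7a2l, which helps join complexes III and IV into supercomplexes, had 0.11 (0.04 to 0.19).

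Cox6b2, known as the testis isoform of Cox6b1 (chr7:4751792-4753094), ran the other way and was the only gene past 2-fold. It was at 23.1 TPM in wild type, 8.60 in knockout, 11.9 with the negative control and 11.3 with the mimic. All 3 knockout libraries were below wild type. The ratio was -1.19 (-1.94 to -0.53), on 61 counts in wild type and 26 in knockout, so the size is loosely fixed.

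All 17 genes of complex V had an interval above 0, with a median of 0.32. The highest ratio of the whole respiratory chain was that of Atp5md, a small membrane subunit also known as DAPIT (chr19:47083471-47090647). It stood at 506 TPM in wild type, 737 in knockout, 728 with the negative control and 665 with the mimic, a ratio of 0.77 (0.61 to 0.92). Also past 1.5-fold were the membrane subunits Atp5k (0.70) and Atp5j2 (0.65) and the epsilon subunit of the catalytic head, Atp5e (0.65). The large subunits of the head were lower on this scale. Atp5a1, the alpha subunit, had 0.15 (0.11 to 0.19), the lowest of the complex, and was at 415 TPM in wild type and 421 in knockout. Atp5b, the catalytic beta subunit, had 0.23 (0.20 to 0.27). The 10 core subunits had a median of 0.24 and the 7 accessory ones 0.41; the accessory ones are mostly the shorter transcripts.

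**Figure D3:**
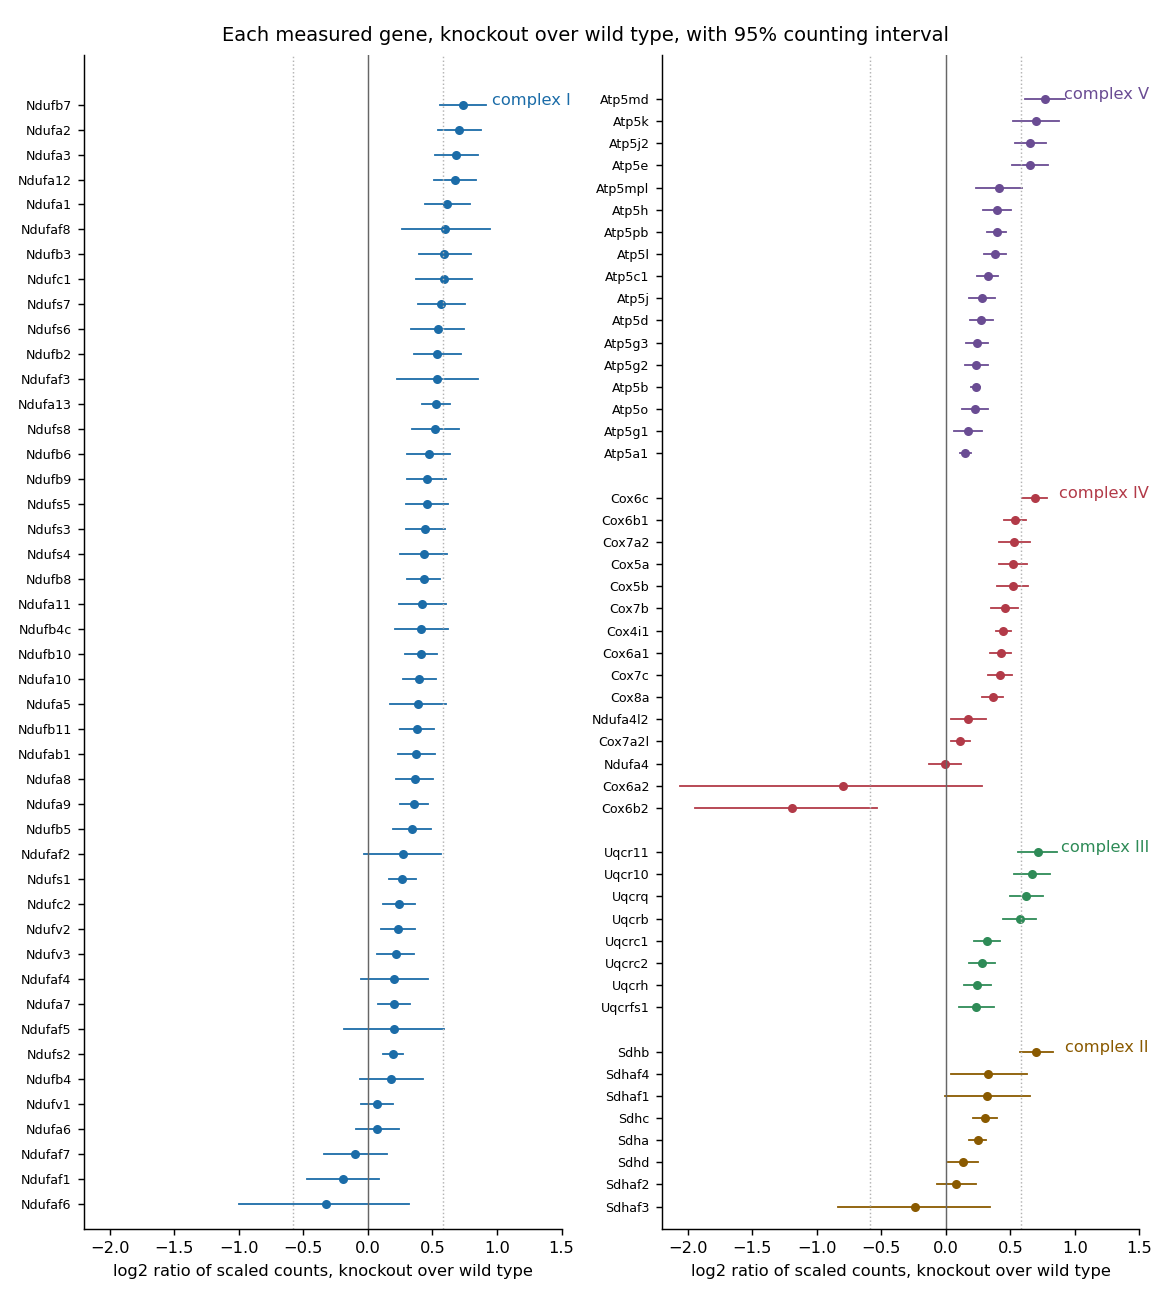
Log2 ratio of scaled counts of knockout over wild type (horizontal axis) for the 93 measured genes, ordered within each complex, with 95% counting intervals as bars; the dotted lines mark 1.5-fold and the solid line no difference. Nearly all points lie to the right of 0, from 0.77 for Atp5md down, and Cox6b2 stands apart at -1.19.

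Over all complexes, the 58 measured accessory subunits had a median of 0.43, the 22 core subunits 0.24 and the 12 assembly factors 0.20 in knockout over wild type. An interval above 0 was found in 53, 21 and 3 of them, where 32.6% of all measured genes had one. The assembly factors did not exceed that share, while 0 of the 12 had an interval below 0, against 30.3% of all measured genes. They were also the least counted, which widens their intervals. The roles were not matched for transcript length. Other genes had a median of 0.43 under 300 bases and of -0.05 from 2000 bases on. The part of length in the contrast between roles was not tested.

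The other 3 comparisons share the knockout or the negative control library, so a deviation of 1 library enters more than 1 of them, and their values are given side by side. In negative control over knockout 94 genes were measured and the median ratio was -0.06, beside 0.00 for all genes. An interval above 0 was seen in 6 genes, with 16.4% of all genes in the background, and an interval below 0 in 36, with 17.0%. In mimic over knockout, in which the G2/M markers were lower too, 93 genes had a median of -0.13, beside 0.00. Here 3 genes had an interval above 0 (background 17.3%) and 51 below (17.4%). In mimic over negative control the G2/M markers were lower as well, with a median of -0.26 and 9 of 12 intervals below 0. There 94 respiratory chain genes had a median of -0.07, beside -0.01, with 8 genes above (19.1%) and 26 below (18.8%). On scaled counts the medians were thus slightly below 0 in all 3 comparisons. On deposited TPM the median of negative control over knockout was -0.002, with 45 genes above 0 and 49 below, and that of mimic over knockout was -0.07. With counts divided by effective length they were -0.03 and -0.11. Relative to the median of all genes, negative control over knockout was at -0.04 on both of these scales, beside -0.07 on scaled counts.

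Past 1.5-fold there were few genes, and few among all measured genes too, so no contrast is drawn from these counts. In negative control over knockout 1 gene was higher, Ndufaf6 (background 0.981%), and 1 lower, Ndufa4l2 (2.71%). In mimic over knockout 1 gene was higher, Cox6a2 (1.12%), on 11 and 27 counts, and 0 were lower (1.80%). Ndufa4l2 lay at the threshold there and is past it under other scalings. In mimic over negative control 1 gene was higher, Ndufaf4 (2.87%), and 0 lower (1.68%).

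By complex, the medians of mimic over knockout were -0.16 for complex I, -0.05 for II, -0.18 for III, -0.13 for IV and -0.08 for V. Those of mimic over negative control were -0.08, -0.06, -0.06, -0.03 and -0.07 in the same order, and those of negative control over knockout -0.07, -0.03, -0.14, -0.10 and -0.03. By role, the accessory subunits of complex V were below 0 in 7 of 7 for mimic over knockout, each with its interval below 0, where 17.4% of all genes had one. They were also below 0 in 7 of 7 for negative control over knockout, 5 with an interval below 0 (17.0% of all genes). For mimic over negative control 2 of the 7 had an interval below 0 (18.8%). The core subunits of that complex had 5 above and 5 below for mimic over knockout. Length moved with these differences as well. For mimic over knockout the median of other genes was -0.22 under 300 bases and 0.03 from 2000 bases on, beside -0.23 and -0.02 for respiratory chain genes. In all 3 of these comparisons the respiratory chain medians lay within 0.06 of those of other genes of like length.

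Uqcrb (chr13:66900576-66905350) was among the genes with the largest ratio of mimic over knockout, -0.56 (-0.69 to -0.43). It was at 312 TPM in wild type, 412 in knockout, 347 with the negative control and 294 with the mimic. The mimic and wild-type libraries were the lowest. Against the negative control the mimic ratio was -0.22 (-0.35 to -0.09). Cox6c had -0.45 (-0.54 to -0.36) against knockout and -0.29 (-0.38 to -0.20) against the negative control. Ndufaf8, which works with the assembly factor Ndufaf5, was at 55.6, 74.4, 79.2 and 54.5 TPM. Its mimic library was level with wild type, with ratios of -0.53 (-0.87 to -0.20) against knockout and -0.52 (-0.85 to -0.20) against the negative control.

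Some genes differed from this small common shift. Atp5g1, one of 3 genes for the same subunit c of the proton-driven rotor, was at 276 TPM in wild type, 280 in knockout, 300 with the negative control and 335 with the mimic. Its ratio of mimic over knockout was 0.20 (0.10 to 0.30) and of mimic over negative control 0.16 (0.06 to 0.26). Ndufaf4, a complex I assembly factor (chr4:24898083-24905001), was at 7.67, 8.08, 5.95 and 9.59 TPM. It was lowest with the negative control and highest with the mimic, and the ratio between those libraries was 0.68 (0.42 to 0.94). Ndufaf6, another complex I assembly factor (chr4:11048991-11076237), was at 6.70, 4.54, 8.91 and 6.98 TPM. Its ratio of negative control over knockout was 0.93 (0.37 to 1.55), on 80 and 37 counts. Both are at low levels beside the structural subunits.

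The genes with a seed match took part in these shifts unevenly. Ndufv2 was at 79.3 TPM in wild type, 84.7 in knockout, 85.9 with the negative control and 81.4 with the mimic. Its ratio was 0.23 (0.10 to 0.36) for knockout over wild type, -0.11 (-0.23 to 0.02) for mimic over knockout and -0.08 (-0.21 to 0.04) for mimic over negative control. Cox5a was at 301, 387, 417 and 353 TPM, higher in the knockout library than in wild type and lower with the mimic than in the other knockout libraries. Its ratios were 0.52 (0.41 to 0.63), -0.20 (-0.30 to -0.10) and -0.23 (-0.33 to -0.13) in the same order. Sdhaf3 was at 15.6, 10.9, 17.0 and 11.8 TPM, and the intervals of its ratios held 0 in all 4 comparisons. The 90 measured genes without a match had medians of 0.38 for knockout over wild type and -0.13 for mimic over knockout. Those of the 3 genes with a match were 0.23 and -0.11. For mimic over negative control the median was -0.06 for 91 genes without a match. It was -0.23 for the 3 with one, of which 3 were below 0 and 1 had its interval below 0. The part of the letters in these shifts was not tested.

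Several subunits have a second gene with a tissue-specific pattern, and these versions were compared as shares of the pair. Ndufa4l2, a low-oxygen-induced relative of Ndufa4 (chr10:127509274-127517154), was at 133 TPM in wild type, 136 in knockout, 65.1 with the negative control and 94.1 with the mimic. The untransfected libraries were near each other and both transfected ones were lower. Its ratio was -1.11 (-1.28 to -0.95) for negative control over knockout, the largest such ratio of the respiratory chain, and -0.58 (-0.73 to -0.44) for mimic over knockout. Between the transfected libraries it was 0.53 (0.36 to 0.70), higher with the mimic. As a share of Ndufa4 and Ndufa4l2 together it made up 21.5% of TPM in wild type, 24.1% in knockout and 18.7% with the mimic, and was least with the negative control.

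The isoforms of heart and skeletal muscle, Cox6a2 and Cox7a1, and the low-oxygen and lung isoform Cox4i2 were near the detection limit. Cox4i2 made up 0.159% to 0.280% of the Cox4 pair and Cox6a2 0.290% to 0.704% of the Cox6a pair. Cox7a1 made up 2.90% in wild type, 3.55% in knockout, 6.17% with the negative control and 4.70% with the mimic of Cox7a1 and Cox7a2, on 7 to 22 counts. Cox6b2 made up 2.38% in wild type and 0.707% to 0.982% in the others. The ubiquitous isoforms were thus the main ones throughout. Among the subunit c genes, Atp5g1 gave 20.2% to 22.6%, Atp5g2 36.2% to 39.3% and Atp5g3 40.1% to 42.8% of their summed TPM.

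**Figure D4:**
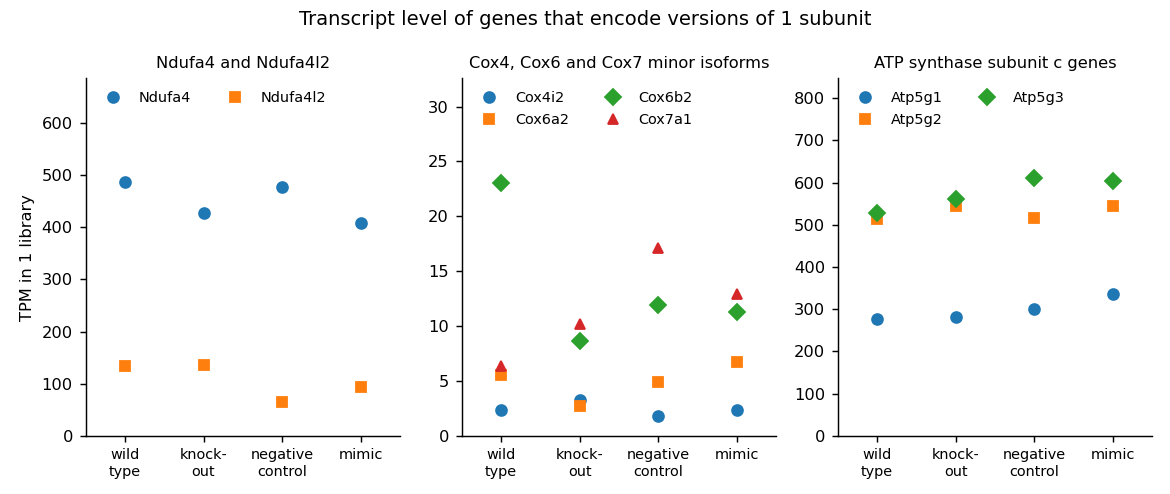
TPM in each of the 4 libraries (1 point per gene and library) for genes that encode versions of the same subunit: Ndufa4 with Ndufa4l2 (left), minor isoforms of complex IV (middle) and the 3 subunit c genes (right); the vertical axes start at 0 and differ in scale. Ndufa4l2 is lower in both transfected libraries (65.1 and 94.1 TPM) and Cox6b2 is highest in wild type (23.1 TPM).

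At the lower edge of the rule, Cox8b was left out at 0.93 TPM, on 1 count in wild type. Just inside it were Ndufb4b at 1.78 TPM, in the mimic library alone and on 3.92 estimated counts, and Cox4i2 at up to 3.22 TPM.

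Other mitochondrial gene groups were described beside these genes for knockout over wild type, where 32.6% of all measured genes had an interval above 0 and 30.3% one below. The groups were not matched for transcript length. Genes outside the respiratory chain had medians of 0.43 under 300 bases, 0.32 from 300 to 600 and 0.24 from 600 to 1000. The part of length in the values below was not tested. The mitochondrial ribosome, which translates the mitochondrially encoded subunits, had a median ratio of 0.31 over 78 genes, and 54 had an interval above 0 and 1 below. The citric acid cycle had a median of 0.13, with 12 of 16 above, among them Idh3g (0.50), a subunit of isocitrate dehydrogenase, and 1 below, Pdha1 (-0.14), a subunit of pyruvate dehydrogenase. Glycolytic enzymes had 0.11 with 10 of 14 above and 1 below, and beta-oxidation 0.06 with 5 of 15 above and 5 below, which is close to the shares of all genes. Uncoupling and antioxidant genes had 0.31 with 9 of 10 above and 1 below. Ucp2, an inner-membrane carrier abundant in macrophages, was the highest of them at 0.87 (0.80 to 0.94).

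Assembly factors outside the symbol rule had lower medians than the subunits. Their medians were 0.01 for complex I (2 of 10 above, 0 below), 0.17 for complex III (2 of 6 above, 0 below), 0.13 for complex IV (8 of 25 above, 1 below) and 0.04 for complex V (2 of 8 above, 0 below). Their counts above 0 were near or under the 32.6% of all genes, while their counts below 0 were under the 30.3% of all genes. Well above these medians were Cox17, the copper chaperone of complex IV, at 0.84 (0.63 to 1.06), and Atpif1, the inhibitor of ATP synthase reversal, at 0.75 (0.65 to 0.85). Transcript length was not matched here either, and its part was not tested. Regulators of mitochondrial biogenesis had a median of -0.02 over 10 measured genes, with 1 above and 4 below. Ppara was the lowest at -2.498 (-3.921 to -1.545), on 50 counts in wild type and 8 in knockout, and Esrra the highest at 0.27 (0.12 to 0.43). Adipocyte and skeletal muscle markers were mostly lower in knockout too, and the part of cell types in these ratios was not tested. Nrf1 itself had -0.01 (-0.22 to 0.20), Yy1 0.01 (-0.08 to 0.11) and Gabpa, an ETS factor, -0.20 (-0.31 to -0.09). Genes of mitochondrial transcription and replication had 0.03 over 12, with 2 above and 0 below, and Tfam, which packages mitochondrial DNA, had 0.01 (-0.20 to 0.22). Respiratory chain genes with the NRF1 letters had a median of 0.37 (12 genes) and those with a promoter but without the letters 0.39 (65 genes). With the ETS letters the median was 0.43 against 0.36, and with the YY1 letters 0.55 in 8 genes against 0.38.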

How the data were processed

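RNA of 4 cell cultures was sequenced, 1 library per group, and the labels gave each library's group. FastQC, HISAT and Bowtie2, and the builds GRCm38.p6 and mm10, are listed in the submitters' processing notes with no version or role. Not given in the sources used here are the quantification tool, the annotation and the strand setting. The deposited table holds estimated counts, TPM and FPKM per gene, per the file headers. The authors also deposited a signal of scaled counts, not used here, and a table of log2 ratios with p-values of PoissonDis, per the file headers. Its log2 ratios equal unscaled count ratios and served as an alternative, while its p-values were not used.

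Counts were scaled with edgeR 4.0.16 TMM factors (R 4.3.3). Log2 ratios used a prior of 1 count, and 95% exact conditional binomial (Clopper-Pearson) intervals used rounded counts. These intervals hold counting error alone, as reads without molecular identifiers are not independent. Effective length was derived from the deposited counts and FPKM. The ratio code was checked on simulated data. DESeq2 1.42.0 size factors were an alternative. All 96 genes were found in the RefSeq table. Spreadsheet dates in place of 26 symbols were restored by identifier.

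The genes and lists were chosen with earlier results of these data known. Named were the most abundant gene of each complex, the 4 of each complex with the largest ratio in knockout over wild type and the 3 in each other comparison (at least 50 counts), genes past 1.5-fold, isoform pairs, genes at the edge of the rule and genes with a seed match. Sdhd, Sdha, Ndufv1, Ndufs7, Uqcrfs1, Atp5a1, Atp5b and genes named from other lists were chosen after their values were seen.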

Additional observations from a re-analysis of the deposited data

How the results depend on the processing

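Scaling by total counts, DESeq2 or upper-quartile factors, or without the 100 most counted genes, a prior of 5 counts, other minima of CPM and TPM, and structural subunits alone left the median of respiratory chain genes in knockout over wild type between 0.37 and 0.42. Dividing by effective length (chosen after seeing the data) gave 0.34, with 11 genes past 1.5-fold in place of 18. Deposited TPM gave 0.22 and 1 gene, at an all-gene median of -0.11. Relative to all genes the median stayed between 0.33 and 0.39 under all 12 alternatives. Those that change only 1 factor per library cannot move this difference, which stayed at 0.37 under them. Beside genes of like length it was 0.07 to 0.28. The authors' deposited log2 ratios turned negative control over knockout to 0.10 (complexes I to V 0.095, 0.131, 0.03, 0.067 and 0.136), where all genes shifted to 0.17. They also moved mimic over negative control from -0.07 to -0.16, with 85 of 94 genes below 0 and all genes at -0.10, and left 0 genes 1.5-fold higher and 1 lower there. The other comparisons have few genes past 1.5-fold. For negative control over knockout there was 1 in place of 2 with 5 CPM, structural subunits alone or 10 TPM. For mimic over knockout there were 2 with total counts, upper-quartile factors or without the most counted genes, and 0 with 5 CPM or 10 TPM, in place of 1. For mimic over negative control there were 0 with structural subunits alone or 10 TPM. Summed CPM in place of TPM gave log2 ratios of knockout over wild type of 0.37, 0.28, 0.42, 0.40 and 0.28 for complexes I to V and 0.34 in all, and 0.29 and 0.23 for negative control and mimic over wild type. The 8-base seed match left 1 gene. No paired analysis was possible because each group is 1 library. Over the respiratory chain genes, the median reach of an interval to either side was 0.13 in knockout over wild type. Well counted genes had narrower intervals.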
